A study of Bos taurus with 14 samples.

Results

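The early response of bovine granulocytes to interferon tau (IFNT) was measured by comparing 4 granulocyte samples given IFNT with 4 given phosphate-buffered saline (PBS), each held for 2 h. These were all the granulocyte samples of the series, 8 of its 14, taken by their titles. The other 6 samples were endometrial stromal cells, 3 with each treatment. IFNT was dosed, per the labels, at 1 mg/mL; an interferon is usually given at far less, so the unit of that label is doubtful. The PBS samples served as the untreated background of every measurement. No breed, age or genotype is labelled, and the study field reads both in vivo and in vitro. The labels name no separate animals or cultures behind the numbered samples, so each error and p-value below measures only the spread between these samples. On the slide that held the granulocyte arrays, the PBS samples lay in array row 1 and the IFNT samples in array row 2, so position on the slide and treatment cannot be told apart.

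IFNT, a type I interferon, is released by the ruminant conceptus in early pregnancy, when it protects the corpus luteum and so sustains progesterone. Like other type I interferons it binds the receptor chains IFNAR1 and IFNAR2, which activate JAK kinases; STAT proteins are then phosphorylated, join IRF9 and enter the nucleus to switch on interferon-stimulated genes. Granulocytes are the short-lived leukocytes of innate defence, mainly neutrophils with eosinophils and basophils, and interferon-stimulated genes in blood leukocytes are used in cattle as early markers of pregnancy.

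Each sample was hybridised to 1 array of a custom bovine design read in a single colour, and levels are given as log2 signal relative to the 75th percentile of the array, so that 0 is the level of a bright probe and negative values are dimmer. The 75th percentile itself was an intensity of 1009 to 1491 on the PBS arrays and 1168 to 1295 on the IFNT arrays. Between 66.4% and 70.9% of the 15208 probes were well above background on each array. Levels of different probes depend on their sequence, so a gene is compared only with itself. A change is the IFNT mean minus the PBS mean, shown with its standard error (± SE, n = 4 against 4). "Rose" and "fell" are used only where the adjusted p was under 0.05.

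The labelled cell type was checked against its markers. All 16 neutrophil markers with a named probe were well above background on all 8 arrays, among them the interleukin 8 receptor CXCR1, the IgG receptor FCGR3A, the calgranulins S100A8 and S100A12 and 5 cathelicidins, and so were all 3 eosinophil and basophil markers (CCR3, ALOX15 and HDC). Markers of other blood cells were present too. On all 8 arrays, 10 of 11 monocyte and macrophage markers, 15 of 21 T and NK cell markers and 5 of 7 B and plasma cell markers were well above background, and whether that RNA came from other cells in the preparations was not tested. The stromal and endothelial lists were thinner: COL1A2, COL3A1, DCN, LUM and PDGFRA, and the endothelial genes CDH5, KDR, TEK and VWF, were not well above background on enough arrays to be tested. Still, 6 of 15 stromal and 2 of 8 endothelial markers with a named probe were well above background on all 8 arrays. So were 6 of 10 epithelial and 5 of 8 platelet and erythroid markers, and the source of that RNA was not tested. The summed level of the neutrophil markers was 9.80 to 10.1 with PBS and 9.82 to 9.94 with IFNT, that of the monocyte markers 7.41 to 7.52 and 7.29 to 7.40, and that of the T and NK cell markers 4.12 to 4.28 and 4.19 to 4.25. The monocyte sums did not overlap and were lower with IFNT. The eosinophil and basophil sum was lower with IFNT as well, at 3.78 to 3.86 with PBS and 3.42 to 3.60 with IFNT. In these samples, fewer cells of a type and less RNA per cell cannot be told apart.

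A large part of the granulocyte transcriptome differed between the IFNT and PBS samples after 2 h, and the few large changes were mostly rises. Of 10379 probes tested, 4633 changed (44.6%). Counted as genes with a symbol, each represented by the brightest of its probes on average, 2235 of 5025 changed (44.5%): 913 rose (18.2%) and 1322 fell (26.3%). The typical change was small, with a median of 0.51 among the genes that rose and −0.33 among those that fell, and the median over all genes tested was −0.05. At 2-fold or more the balance turned: 224 genes rose that far (4.46%) and 50 fell that far (0.995%), and at 4-fold or more the numbers were 79 and 5. IFNT and PBS arrays did not overlap in 2229 genes (44.4%), nor in 4526 of the probes (43.6%). Each count of a list below is to be read beside these shares of all genes. A list in which a like share of the members changed does not stand apart from the array as a whole.

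**Figure D1:**
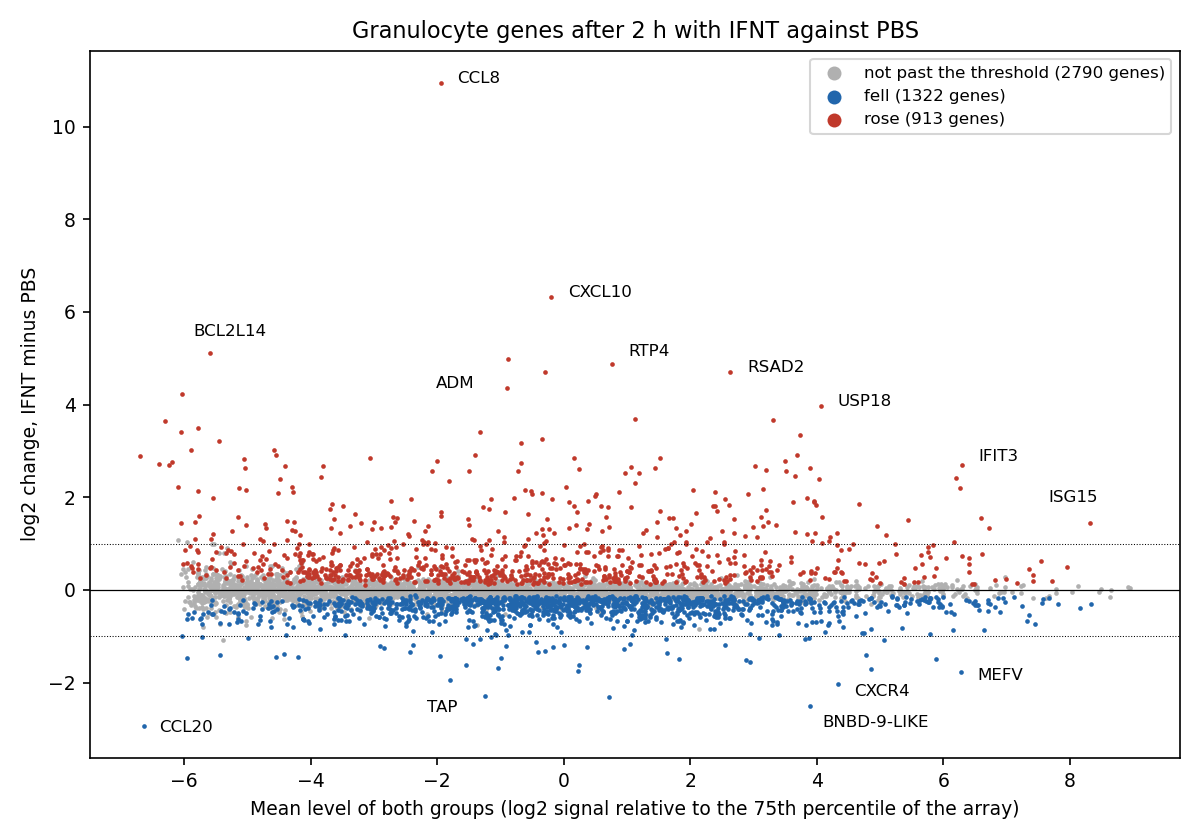
Each point is a gene among the 5025 genes tested in granulocytes: the horizontal axis is its mean level over the 8 arrays (log2 signal relative to the 75th percentile of the array), the vertical axis its log2 change with IFNT, and the dotted lines mark 2-fold. The points above the upper line (224 of the genes that rose) outnumber those below the lower line (50 of those that fell), and the large rises occur at every level.

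Dim genes were measured less precisely. Of the 1257 dimmest genes 17.3% rose and 11.9% fell, with a median SE of 0.12, whereas of the 1256 brightest 17.8% rose and 33.8% fell, with a median SE of 0.06. Rises of at least 2-fold numbered 56 among those dimmest genes and 71 among the brightest. A set of 23 genes was well above background on none of the PBS arrays and on all IFNT arrays. These included CCL8, BCL2L14, TMPRSS2, IFNAA, IFNB1, IL12A and TRIM38. The reverse, well above background on all PBS arrays and on no IFNT array, held for CCL20, ZNF33A and FBL. Genes of both kinds entered the test through 1 group alone, so a list count that holds any of them is a description only. The falls of ZNF33A and FBL were no longer called with normexp background correction (−0.41 and −0.23), nor that of ZNF33A without IFNT array 2 (−1.32). Many responding probes have no gene symbol in the sources used here: 173 of the 402 probes that rose at least 2-fold (3.87% of probes) and 47 of the 100 that fell at least 2-fold (0.963%).

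At the top of the pathway, the receptor chains that changed fell and the transcription factors that changed rose. Of 10 genes of interferon receptors and JAK-STAT signalling that were tested, 3 rose, among them IRF9 and STAT3, and 4 receptor chains fell (7 of 10 changed, against 44.5% of all genes). IFNAR2, the signalling chain of the type I receptor, stood at 6.81, 6.77, 6.78 and 6.77 on the PBS arrays and 6.27, 6.36, 6.42 and 6.35 on the IFNT arrays, a change of −0.43 ± 0.05 (adjusted p 1.0e-04). Every IFNT array was below every PBS array, although the fall was only 1.35-fold. IFNGR1 (−0.50 ± 0.05) and IFNGR2 (−0.26 ± 0.07), the chains of the interferon gamma receptor, and IL10RB (−0.51 ± 0.07), which serves the receptors for IL10 and interferon lambda, fell as well. The values of IFNAR1 (−0.22 ± 0.13), STAT5B (−0.06 ± 0.06) and STAT6 (−0.14 ± 0.08) did not pass the test.

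IRF9, which gives the STAT complex its DNA contact, was at 5.69, 5.63, 5.55 and 5.70 with PBS and 6.77, 6.67, 6.62 and 6.65 with IFNT, a rise of 1.03 ± 0.05 (adjusted p 1.1e-06). The groups lay apart by far more than the spread within a group. STAT3, which serves many cytokine receptors, rose by only 0.27 ± 0.04.

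Interferon regulatory factors are transcription factors that induce interferons and their target genes. Of 5 tested genes in that list 4 rose and none fell. IRF3, which triggers interferon beta transcription once viral nucleic acid is sensed, gave −2.07, −2.05, −1.99 and −1.91 with PBS and 0.60, 0.62, 0.30 and 0.70 with IFNT, a rise of 2.56 ± 0.09 or 5.89-fold (adjusted p 7.5e-08). IFNT array 3 was the lowest of its group and still far above every PBS array. IRF1 rose by 1.90 ± 0.12, IRF5 by 0.31 ± 0.05 and IRF2 by 0.19 ± 0.05 (a call lost when all 14 arrays shared 1 fit), while IRF2BP2, a partner of IRF2, had a value of −0.06 ± 0.06 that did not pass.

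Of 15 nucleic acid sensors and adaptors tested, 4 rose and 4 fell, a share of changed genes near that of the array (44.5%). The RNA helicase RIGI was at 2.81, 2.91, 2.89 and 2.74 with PBS and 5.33, 5.09, 5.24 and 5.22 with IFNT (2.39 ± 0.06). Its relative DHX58 rose by 3.34 ± 0.11, TREX1, the exonuclease that degrades cytosolic DNA, by 2.73 ± 0.05, and TLR7, the endosomal receptor for single-stranded RNA, by 0.94 ± 0.08. The falls were in the kinases that act on IRF3, IKBKE (−0.91 ± 0.09) and TBK1 (−0.41 ± 0.07), in the ubiquitin ligase TRAF6 (−0.43 ± 0.04) and in TICAM1, an adaptor of Toll-like receptors (−0.44 ± 0.14, a call lost without any of 4 of the 8 arrays). The adaptors MAVS (−0.11 ± 0.18), which serves RIGI, STING1 (0.05 ± 0.12) and MYD88 (−0.19 ± 0.21) had no call.

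Antiviral effectors, the proteins that block steps of virus replication, rose almost without exception. Of 27 tested, 26 rose and none fell, against 18.2% of all genes that rose, and 20 of them rose at least 2-fold, against 4.46%. Their median change was 2.12, beside −0.05 over all genes tested. RTP4 had the largest change of the list, from −1.68, −1.66, −1.62 and −1.75 on the PBS arrays to 3.21, 3.20, 3.17 and 3.20 on the IFNT arrays (29.2-fold, 4.87 ± 0.04). Its 4 IFNT values spanned only 0.04. IFIT3, which binds foreign RNA together with its family, rose by 2.70 ± 0.06. The sole member without a call was NT5C3A (0.13 ± 0.13).

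Nuclear body and ubiquitin ligase genes belonged to the same group of rises. PML, which builds nuclear bodies, rose by 2.91 ± 0.05, its partner SP110 by 2.60 ± 0.05 and DAXX, another component of those bodies, by 2.84 ± 0.07. Among the tripartite motif ligases TRIM38 rose at least 4.32-fold from background, TRIM21 by 1.82 ± 0.11 and TRIM14 by 0.87 ± 0.06. OAS2, which makes the activator of RNase L, rose by 2.52 ± 0.08 and EIF2AK2, the RNA-activated kinase that stops translation, by 1.93 ± 0.06. MOV10, an RNA helicase, rose by 2.78 ± 0.06. XAF1 (0.56 ± 0.04) and PARP9 (0.58 ± 0.04) were among the smallest rises of the list.

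The conjugation system of ISG15, a ubiquitin-like protein attached to target proteins after interferon, rose in all 3 genes tested. ISG15 itself was at 7.72, 7.46, 7.69 and 7.53 with PBS and 9.06, 8.96, 9.09 and 9.10 with IFNT (1.45 ± 0.07). Saturation was reached on every IFNT array and on no PBS array, so the rise is at least 2.74-fold. UBA7, the enzyme that activates ISG15, rose by 2.08 ± 0.13, and USP18, which removes it and also restrains IFNAR2, by 3.98 ± 0.09. Of 11 feedback inhibitors tested, 5 rose and 3 fell. Besides SOCS2 (1.32 ± 0.08) and CISH (1.28 ± 0.09), which block cytokine receptor signalling, SOCS3 (0.71 ± 0.08), DUSP10 (0.54 ± 0.05) and SPRY2 (0.29 ± 0.07) rose. DUSP6, a phosphatase of the ERK kinases, had the largest fall (−0.92 ± 0.06).

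**Figure D2:**
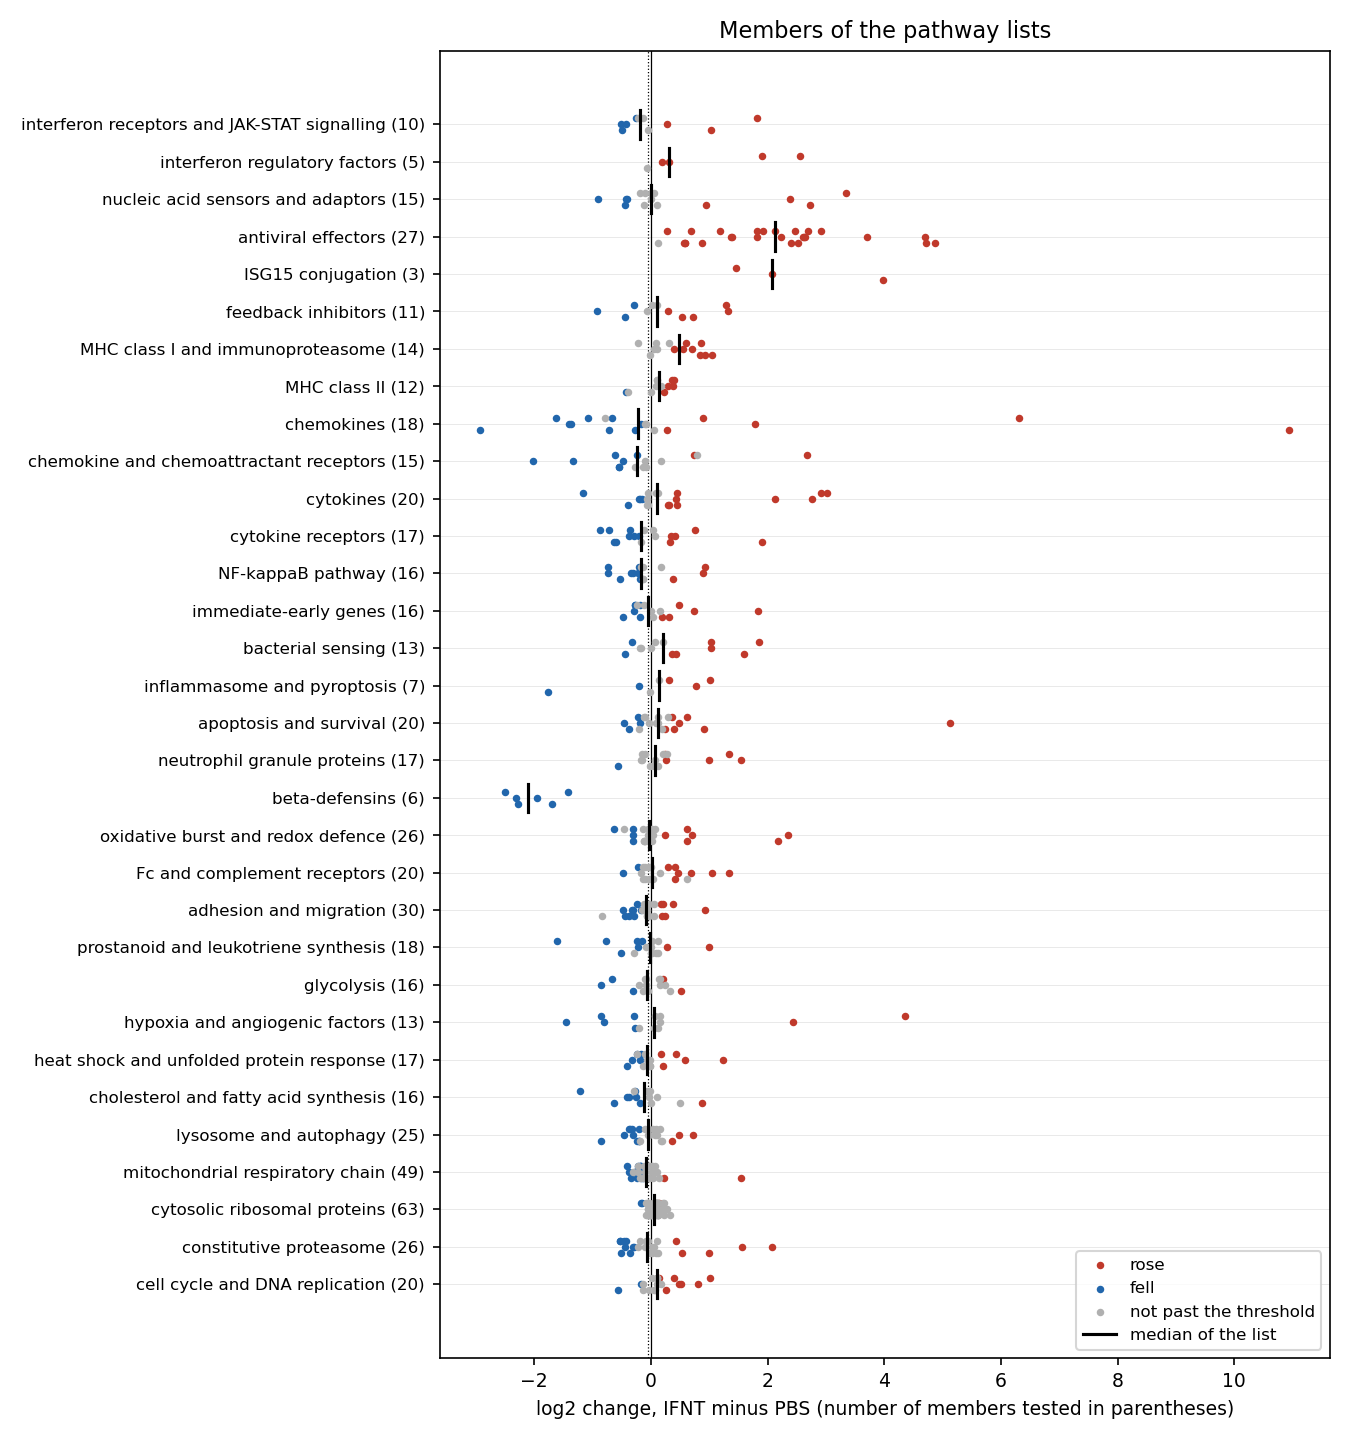
Each point is a tested member of 1 of 32 pathway lists, placed by its log2 change with IFNT; the black bar is the median of the list and the dotted line the median of all genes tested (−0.05). The antiviral effectors lie to the right (median 2.12) and the beta-defensins to the left (median −2.11), whereas the respiratory chain and ribosomal proteins gather near 0.

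Of 4 interferon genes tested, 3 rose, and interferon gamma (IFNG) had no call (−0.07 ± 0.10). IFNAA, an interferon alpha, was not well above background on any PBS array and rose at least 2.77-fold, and IFNB1, interferon beta, rose at least 2.19-fold from background. IFNAC, another interferon alpha gene, was well above background on 3 PBS arrays and rose by 2.12 ± 0.18; it lies outside the rule for named genes and was picked after its value was seen. The probes for interferon omega (IFNW1) and for interferon tau itself did not pass the filter on background. IFNAA and IFNB1 passed it only through the IFNT arrays. All 23 genes that passed in this way rose, so the count of interferon genes that rose is a description only. Interferon genes are close relatives, so their probes are shown here, with the longest run of bases that each of the 3 that rose shares with another of them in capitals.
IFNAA: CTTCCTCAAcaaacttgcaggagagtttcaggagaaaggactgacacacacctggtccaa
IFNAC: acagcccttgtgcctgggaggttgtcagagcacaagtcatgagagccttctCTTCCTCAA
IFNB1: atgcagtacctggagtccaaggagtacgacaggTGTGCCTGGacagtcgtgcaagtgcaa
No shared run was longer than 9 of 60 bases. The run of IFNAC and IFNAA ends the IFNAC probe and starts the IFNAA probe, so its shortness does not show that they read different genes. Whether their rises are separate was not tested. A probe can still bind other members of the family that have no probe here.

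Genes of antigen presentation rose modestly. Of 14 genes of MHC class I presentation tested, 8 rose and none fell (1 fell with quantile normalization, and 1 without IFNT array 2), with a median change of 0.48. The proteasome activator subunits PSME2 (1.05 ± 0.06) and PSME1 (0.71 ± 0.04), the immunoproteasome subunits PSMB9 (0.86 ± 0.05) and PSMB8 (0.85 ± 0.08), the peptide transporter chain TAP2 (0.61 ± 0.09), the peptide trimming enzyme ERAP2 (0.55 ± 0.08), the loading factor TAPBP (0.40 ± 0.08) and the class I heavy chain JSP.1 (0.92 ± 0.15) all rose. Only PSME2 passed 2-fold. The other heavy chain probe, BOLA, read 0.06 ± 0.08 without a call, and its spots were saturated on 3 PBS and 2 IFNT arrays, so that a rise there could not have been measured in full. Of 12 class II genes 5 rose (3 with all 14 arrays in 1 fit), none by 2-fold, and the endosomal protease LGMN fell (−0.43 ± 0.05).

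The chemokines, secreted proteins that direct leukocyte migration, held some of the largest changes in both directions. Of 18 tested, 5 rose and 9 fell, beside 18.2% and 26.3% of all genes. The probes of the genes at both ends of this group are shown because each call rests on a single oligonucleotide.
CCL8: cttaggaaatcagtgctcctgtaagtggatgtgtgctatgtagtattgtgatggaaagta
CXCL10: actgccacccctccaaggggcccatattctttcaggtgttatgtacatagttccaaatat
CCL20: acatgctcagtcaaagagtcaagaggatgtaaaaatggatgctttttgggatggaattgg
CCL8, a chemoattractant for monocytes and T cells, was at background on the PBS arrays, at −7.90, −6.96, −7.95 and −6.84, and at 3.37, 3.54, 3.61 and 3.60 on the IFNT arrays. The rise was at least 664-fold. CXCL10, a ligand of the T and NK cell receptor CXCR3, moved from −3.43, −3.38, −3.30 and −3.30 to 2.96, 3.02, 2.95 and 2.92 (79.6-fold, adjusted p 3.8e-11). No array of either gene came near the other group. CCL2, another monocyte attractant, rose by 1.79 ± 0.14 and CCL4 by 0.89 ± 0.09.

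Of the 9 chemokines that fell, 5 were ligands of the neutrophil receptors CXCR1 and CXCR2: CXCL3 (−1.37 ± 0.08), CXCL2 (−1.09 ± 0.06), CXCL5 (−0.72 ± 0.05), CXCL8 (−0.68 ± 0.07) and GRO1 (−1.41 ± 0.06). CCL5 (−0.17 ± 0.04) and CXCL16 (−0.27 ± 0.09), which attract T cells, fell by less; the call of CCL5 was lost when all 14 arrays shared 1 fit, and that of CXCL16 without any of 7 of the 8 arrays. CCL3 had no call (0.05 ± 0.08). CCL20, which attracts cells bearing CCR6, was at −5.01, −5.44, −4.87 and −5.33 with PBS and −7.80, −8.34, −8.33 and −7.91 with IFNT, where no array was well above background, so that the fall is at least 1.55-fold. CCL24, a ligand of the eosinophil receptor CCR3, fell by 1.62 (SE 0.07).

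Of 15 receptors for chemoattractants tested, 2 rose, 7 fell and 6 had no call, beside 26.3% of all genes that fell. CXCR4, which holds neutrophils in the bone marrow by binding CXCL12, read 5.35, 5.29, 5.61 and 5.13 with PBS and 3.19, 3.34, 3.46 and 3.30 with IFNT (−2.02 ± 0.10, 4.06-fold lower). CCR3 (−1.34 ± 0.07), the complement C5a receptors C5AR2 (−0.55 ± 0.06) and C5AR1 (−0.47 ± 0.08) and the receptor for platelet-activating factor PTAFR (−0.54 ± 0.06) fell as well. CCR3 is also 1 of the 3 eosinophil and basophil markers, of which ALOX15 fell too (−0.21 ± 0.06) and HDC had no call (0.31 ± 0.13); the part of these cells in the fall was not tested. P2RY14, a receptor for UDP-glucose, rose, and went from −5.46, −5.12, −5.12 and −4.89 to −2.30, −2.45, −2.47 and −2.66 (2.68 ± 0.12).

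**Figure D3:**
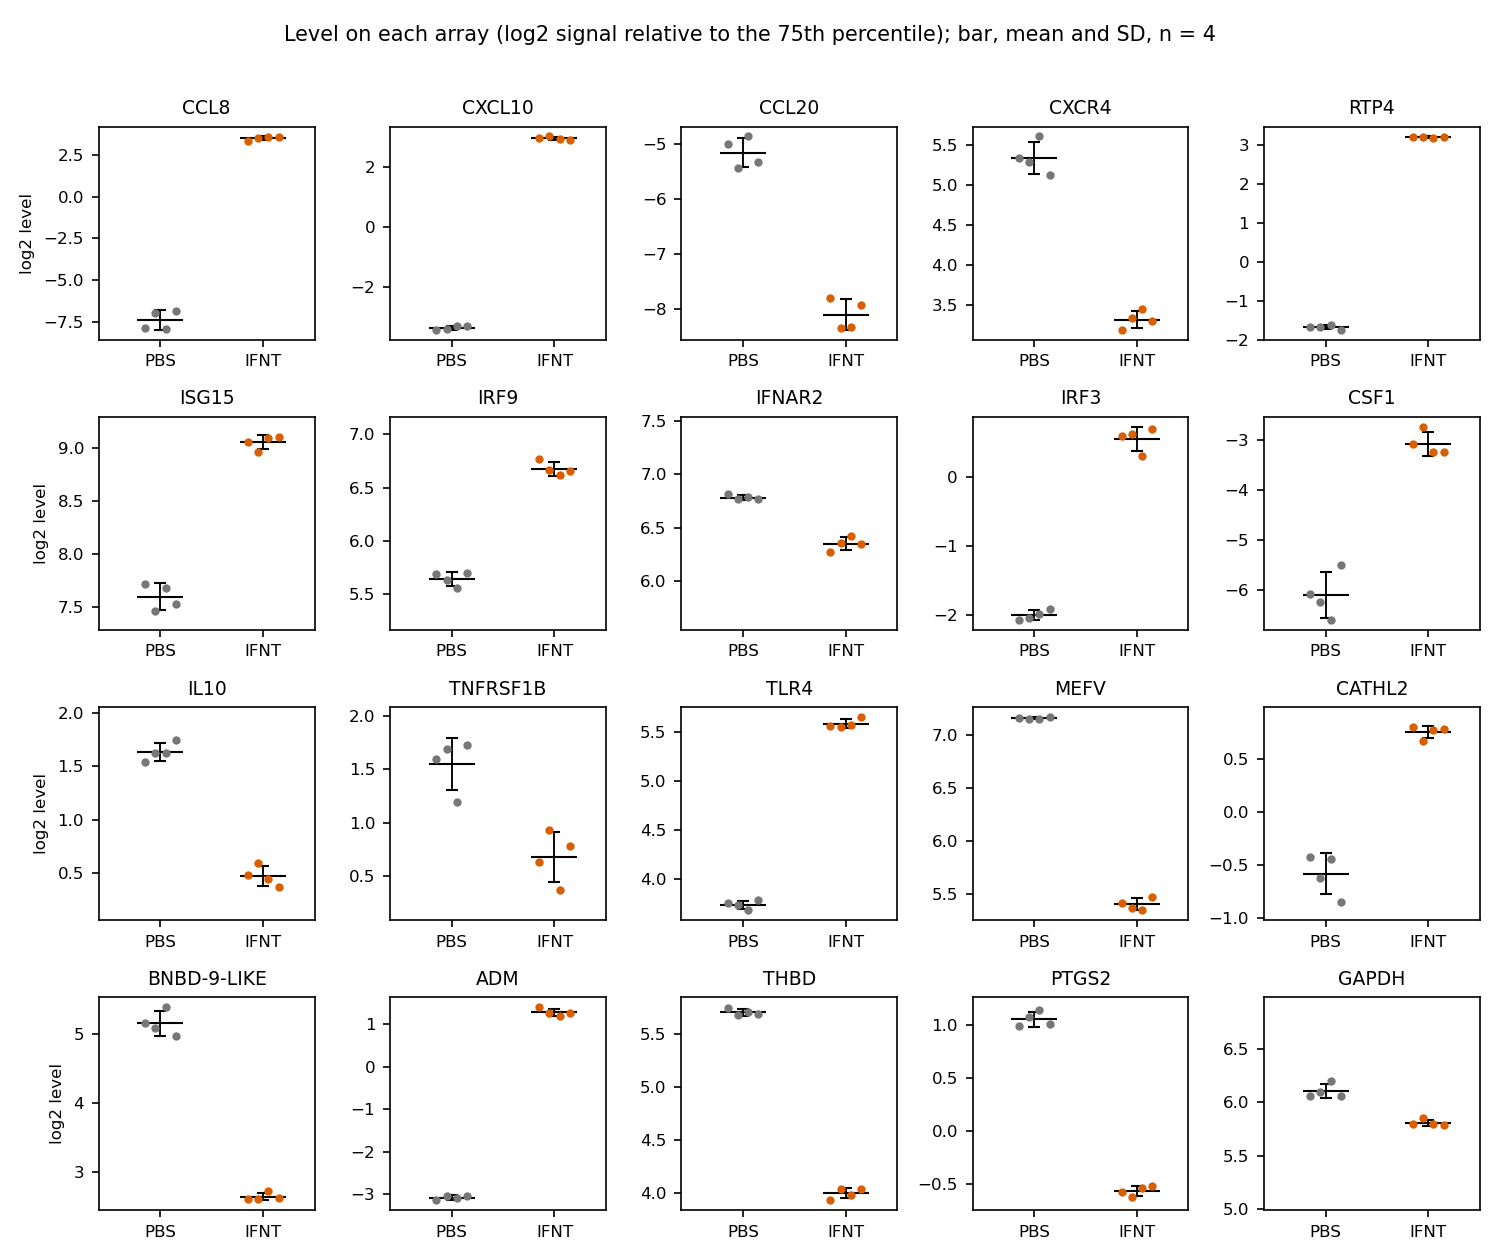
Each panel gives 1 gene: points are the 4 PBS and the 4 IFNT arrays, on the vertical axis as log2 signal relative to the 75th percentile of the array, with the mean and SD. In every panel the PBS and IFNT arrays lie apart, by as little as the −0.30 of GAPDH; CCL8 was at background on the PBS arrays and CCL20 on the IFNT arrays, and ISG15 was saturated on all IFNT arrays.

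Among the cytokines a few rises were large and most of the falls were small. IL12A and IFNB1 entered the test only through the IFNT arrays, so the count of rises is a description only. Of 20 tested, 9 rose and 5 fell (2 with all 14 arrays in 1 fit, and 3 without IFNT array 2, PBS array 2 or PBS array 3). CSF1, the growth factor of monocytes and macrophages, was at −6.08, −6.23, −6.60 and −5.49 with PBS and −3.08, −2.73, −3.23 and −3.24 with IFNT (3.03 ± 0.22). It was well above background on 1 of 4 PBS arrays, so its fitted change leans on dim values. TNFSF13B (BAFF), which keeps B cells alive, rose by 2.91 ± 0.07, and IL12A, a chain of interleukin 12, at least 2.06-fold from background. IL6 (0.45 ± 0.07) and IL18 (0.31 ± 0.07) rose by small amounts. IL10 fell, from 1.54, 1.63, 1.62 and 1.74 to 0.48, 0.60, 0.44 and 0.37 (−1.16 ± 0.06), as did IL1RN, the antagonist of the interleukin 1 receptor (−0.39 ± 0.05), and, by less, the interleukin 1 gene IL1B (−0.21 ± 0.04, no call with all 14 arrays in 1 fit).

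Of 17 cytokine receptors tested, 5 rose and 8 fell, beside 18.2% and 26.3% of all genes. The TNF receptor TNFRSF1B had the largest fall of them, from 1.59, 1.69, 1.19 and 1.73 with PBS to 0.63, 0.93, 0.37 and 0.78 with IFNT (−0.87 ± 0.15, adjusted p 0.00153). Array 3 was the lowest of both groups, and the groups did not overlap. Of the interleukin 1 receptor family, IL1RAP (−0.72 ± 0.04), IL1R1 (−0.37 ± 0.05) and IL18RAP (−0.36 ± 0.06) fell. The common gamma chain IL2RG fell (−0.64 ± 0.07). OSMR, the oncostatin M receptor, rose by 1.90 ± 0.06 and TGFBR1 by 0.75 ± 0.12.

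Several intracellular components of NF-kappaB signalling, the main route of inflammatory transcription, were lower. Of 16 tested, 3 rose and 8 fell, which as a share of changed genes (11 of 16) should be read against 44.5% of all genes. TNIP1 (−0.73 ± 0.06) and NFKBIB (−0.73 ± 0.05), both inhibitors of the pathway, had the largest falls. The kinases RIPK1 (0.92 ± 0.17) and RIPK2 (0.89 ± 0.08), which relay signals from TNF receptors and NOD proteins, rose. Of 16 immediate-early genes, 5 rose and 6 fell; MAFF, a small MAF transcription factor, rose by 1.83 ± 0.06 and IER3 fell (−0.47 ± 0.07).

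Receptors for bacterial products rose more often than they fell. Of 13 genes of bacterial sensing tested, 6 rose and 2 fell, and 4 rose at least 2-fold, against 4.46% of all genes. TLR4, the receptor for bacterial lipopolysaccharide, was at 3.75, 3.73, 3.68 and 3.78 with PBS and 5.56, 5.55, 5.57 and 5.66 with IFNT (3.62-fold, 1.85 ± 0.05). The PBS and IFNT values each spanned 0.10. Its relative CD180 rose by 1.60 ± 0.06, its coreceptor CD14 by 1.03 ± 0.07, the beta-glucan receptor CLEC7A by 1.03 ± 0.07 and TLR2 by 0.42 ± 0.07. LY96, the other coreceptor of TLR4, had no call (−0.18 ± 0.10), and TREM1, which amplifies these signals, fell (−0.44 ± 0.05). CD14 is also a monocyte marker, and the part of monocytes in its rise was not tested.

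In the inflammasome list, with 7 genes tested, 3 rose and 2 fell. MEFV, the gene of pyrin, was at 7.16, 7.15, 7.16 and 7.17 with PBS and 5.41, 5.37, 5.34 and 5.47 with IFNT (−1.76 ± 0.04, 3.38-fold lower). The PBS values spanned 0.02. The inflammatory caspases rose: CASP1 by 1.02 ± 0.05 and CASP4 by 0.77 ± 0.06. Of 20 genes of apoptosis and survival tested, 7 rose and 4 fell. BCL2L14 rose at least 7.06-fold from background and the death receptor FAS by 0.48 ± 0.09. Genes that favour survival went both ways: BCL2A1 (−0.46 ± 0.10) and BIRC3 (−0.38 ± 0.05) fell, and BCL2 (0.36 ± 0.06, no call with the median of its probes) and PIM1 (0.25 ± 0.05) rose.

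Of 17 neutrophil granule genes tested, 5 rose (3 with all 14 arrays in 1 fit), 1 fell and 11 had no call. The share that changed was 35.3%, beside 44.5% of all genes, and the median change was 0.08. The cathelicidin CATHL2 read −0.43, −0.62, −0.44 and −0.84 with PBS and 0.80, 0.67, 0.77 and 0.78 with IFNT (1.33 ± 0.09), CATHL6 rose by 1.54 ± 0.05, and both lactoferrin probes rose, by 0.94 and 1.00. CATHL4 (0.12 ± 0.12) and CATHL5 (0.27 ± 0.11) had no call. The gelatinase MMP9 fell (−0.56 ± 0.05), and myeloperoxidase (MPO) had a value of −0.09 ± 0.06 without a call.

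All 6 beta-defensins tested fell at least 2-fold, against 0.995% of all genes, with a median of −2.11. Beta-defensins are short cationic peptides that disrupt microbial membranes, and cattle carry a large family of similar genes, so the probes are given with the longest run that each shares with another of the 6 in capitals.
BNBD-9-LIKE: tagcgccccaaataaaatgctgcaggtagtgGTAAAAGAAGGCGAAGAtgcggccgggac
DEFB13: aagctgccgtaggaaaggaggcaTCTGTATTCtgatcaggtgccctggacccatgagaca
TAP: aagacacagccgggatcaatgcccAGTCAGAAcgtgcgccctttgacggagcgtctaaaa
LAP: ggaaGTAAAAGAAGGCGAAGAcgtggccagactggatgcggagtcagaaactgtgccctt
DEFB4A: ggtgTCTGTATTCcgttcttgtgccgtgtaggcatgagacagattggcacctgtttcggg
EBD: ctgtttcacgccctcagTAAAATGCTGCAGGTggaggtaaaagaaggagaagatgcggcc
The longest shared runs were 17 bases between BNBD-9-LIKE and LAP and 15 between EBD and BNBD-9-LIKE. A run ends at the first differing base, so its length understates how alike the probes are. Beyond their 15 bases, EBD and BNBD-9-LIKE match to the end of the EBD probe apart from a few single bases. Whether their falls are separate was not tested. The shared runs of TAP and DEFB13 were 8 and 9 bases, and such short runs do not show that these probes read different genes. Whether each probe reads only the gene it is named for was not tested.

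BNBD-9-LIKE, named for a neutrophil beta-defensin, was at 5.16, 5.08, 5.39 and 4.96 with PBS and 2.61, 2.61, 2.73 and 2.63 with IFNT (−2.50 ± 0.09). TAP, tracheal antimicrobial peptide, was at −0.14, −0.29, 0.20 and −0.18 with PBS and −2.41, −2.40, −2.29 and −2.42 with IFNT (−2.28 ± 0.10). In both, sample 3 was the highest of each group, and the groups were far apart. DEFB13 fell (−2.32 ± 0.08), LAP (−1.95 ± 0.16), DEFB4A (−1.69 ± 0.07) and EBD (−1.43 ± 0.12).

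Of 26 genes of the oxidative burst and redox defence tested, 6 rose and 4 fell. The share that changed was 38.5%, beside 44.5% of all genes, and the median change was −0.03. The largest rises were in redox defence. HMOX1, which degrades haem, was at 2.19, 2.07, 1.70 and 2.30 with PBS and 4.37, 4.53, 4.22 and 3.87 with IFNT (2.18 ± 0.17), and GCLM, a subunit of the enzyme that starts glutathione synthesis, rose by 2.34 ± 0.14. Of the NADPH oxidase, the catalytic subunit CYBB rose by 0.70 ± 0.09 and the subunit CYBA fell (−0.31 ± 0.11, adjusted p 0.045). The cytosolic subunits NCF1 (−0.14 ± 0.07) and NCF4 (−0.12 ± 0.05) had no call.

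Of 20 Fc receptors and complement genes tested, 7 rose (4 with all 14 arrays in 1 fit) and 2 fell. FCGR3A, the low-affinity IgG receptor, went from 1.09, 1.22, 0.87 and 1.21 to 2.46, 2.60, 2.32 and 2.38 (1.34 ± 0.09). SERPING1, the inhibitor of complement C1, rose by 1.04 ± 0.06. FCAR, the IgA receptor, fell (−0.48 ± 0.07). Of 30 adhesion and migration genes 6 rose and 8 fell: ICAM1, a ligand of leukocyte integrins, rose by 0.93 ± 0.10, and actin regulators such as VASP (−0.45 ± 0.09) and CORO1A (−0.38 ± 0.07) fell. The integrin chains ITGAM (−0.04 ± 0.06) and ITGB2 (−0.03 ± 0.05) had no call.

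Of 18 genes of prostanoid and leukotriene synthesis tested, 2 rose and 6 fell, so the share that changed was near the 44.5% of all genes. PTGS2, the inducible cyclooxygenase, was at 0.98, 1.07, 1.13 and 1.00 with PBS and −0.57, −0.62, −0.53 and −0.52 with IFNT (−1.61 ± 0.05, 3.05-fold lower). PTGES, which makes prostaglandin E2, fell (−0.77 ± 0.05), and HPGD, which inactivates it, (−0.51 ± 0.08). PTGES2, another prostaglandin E synthase, rose by 0.99 ± 0.17.

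Of 13 hypoxia and angiogenic factors tested, 2 rose and 5 fell, and 6 had no call. ADM, a vasodilator peptide, went from −3.15, −3.04, −3.09 and −3.04 with PBS to 1.41, 1.26, 1.19 and 1.26 with IFNT (20.5-fold, 4.36 ± 0.06), and EDN1, the vasoconstrictor endothelin 1, rose by 2.44 ± 0.38 with a wide spread among the PBS arrays (SD 0.89). Outside that list, THBD, thrombomodulin, which turns thrombin towards anticoagulation, was at 5.74, 5.67, 5.70 and 5.68 with PBS and 3.94, 4.04, 3.99 and 4.04 with IFNT (−1.70 ± 0.04). Within the list, FLT1, a receptor for VEGFA, fell (−1.46 ± 0.09), the adhesive protein THBS1 (−0.85 ± 0.08), and both VEGFA probes fell (−1.14 and −0.80). HIF1A (0.11 ± 0.05) had no call.

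Of 16 genes of cholesterol and fatty acid synthesis, 1 rose, 7 fell and 8 had no call, so the share that changed was near that of all genes (44.5%). Among those that fell were MVD (−1.21 ± 0.06), HMGCS1 (−0.40 ± 0.05), DHCR7 (−0.37 ± 0.08) and FDFT1 (−0.25 ± 0.05) of the sterol pathway, and NR1H3, the sterol receptor LXR alpha (−0.63 ± 0.06). The rise was that of CH25H (0.87 ± 0.11), whose oxysterol product is antiviral and restrains sterol synthesis. PPARG, a fatty acid receptor, fell (−1.35 ± 0.05), and so did the fatty acid transporter CD36 (−1.40 ± 0.16). CD36 is also a monocyte marker. It was well above background on 1 of 4 IFNT arrays, so its fitted change leans on dim values. Of 25 lysosome and autophagy genes 3 rose, 10 fell and 12 had no call, with the autophagy receptor SQSTM1 lowest (−0.86 ± 0.08) and the membrane protein LAMP1 highest (0.72 ± 0.06).

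Ribosomal proteins had far fewer calls than the array as a whole, whereas the respiratory chain and the proteasome lay nearer to its share. Of 63 cytosolic ribosomal protein genes, 1 rose and 2 fell, against 44.5% of all genes, with a median of 0.06. Of 49 respiratory chain genes 2 rose and 15 fell, so that 34.7% changed, beside 44.5% of all genes, with a median of −0.09. Apart from UQCRC2, a subunit of complex III that rose by 1.55 ± 0.08, the values were small, the lowest −0.42 for COX8A. Of 26 subunits of the constitutive proteasome 5 rose and 9 fell, and PSMA2 (2.07 ± 0.09), PSMC3 (1.56 ± 0.04) and PSMD6 (0.99 ± 0.07) stood above the others, which ran from −0.53 for PSMA7 to 0.53 for PSMA3. GAPDH was at 6.06, 6.10, 6.20 and 6.06 with PBS and 5.79, 5.85, 5.79 and 5.78 with IFNT (−0.30 ± 0.05), and all 102 of its probes fell (−0.47 to −0.20). Of 12 reference genes, 2 rose and 4 fell, YWHAZ furthest (−0.47 ± 0.07); 1 or both of the rises lost the call under most alternatives. The summed reference level was 9.54 to 9.70 with PBS and 9.56 to 9.61 with IFNT.

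Of 17 heat shock and unfolded protein response genes 5 rose and 5 fell; XBP1, a transcription factor of that response, rose by 1.23 ± 0.04 and the mitochondrial chaperone HSPA9 fell (−0.41 ± 0.05). Of 20 cell cycle genes 7 rose and 2 fell, led by RRM2, a subunit of ribonucleotide reductase (1.02 ± 0.05), and of 16 glycolysis genes 2 rose and 3 fell, PGAM1 furthest (−0.85 ± 0.07).

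Of 19 T and NK cell markers tested 3 rose, NKG7 most (0.93 ± 0.18), and none fell (up to 2 fell under other settings), while the T cell receptor chains CD3G (−0.25 ± 0.09) and CD247 (−0.04 ± 0.06) had no call. Of 11 monocyte and macrophage markers 5 rose (2 with all 14 arrays in 1 fit) and 2 fell, a larger share than the 44.5% of all genes, but in both directions: CD14 (1.03 ± 0.07), C1QB (0.47 ± 0.05) and C1QC (0.41 ± 0.04) rose (the C1Q calls were lost in that fit), CD36 (−1.40 ± 0.16) and CD68 (−0.36 ± 0.05) fell, and the bright FCN1, which weighs most in the summed level, had no call (−0.13 ± 0.05). In the stromal list COL1A1 (1.42 ± 0.09) rose and CNN1 rose from background at least 1.69-fold, of 8 tested, and in the epithelial list MUC1 (2.84 ± 0.16) had the largest of 3 rises among 9. That MUC1 probe was well above background on 1 of 4 PBS arrays, so its fitted change leans on dim values. The other MUC1 probe tested read −0.11. The platelet and erythroid list had 2 falls among 6, with EPB42, a red cell membrane protein, lowest (−0.96 ± 0.08).

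**Figure D4:**
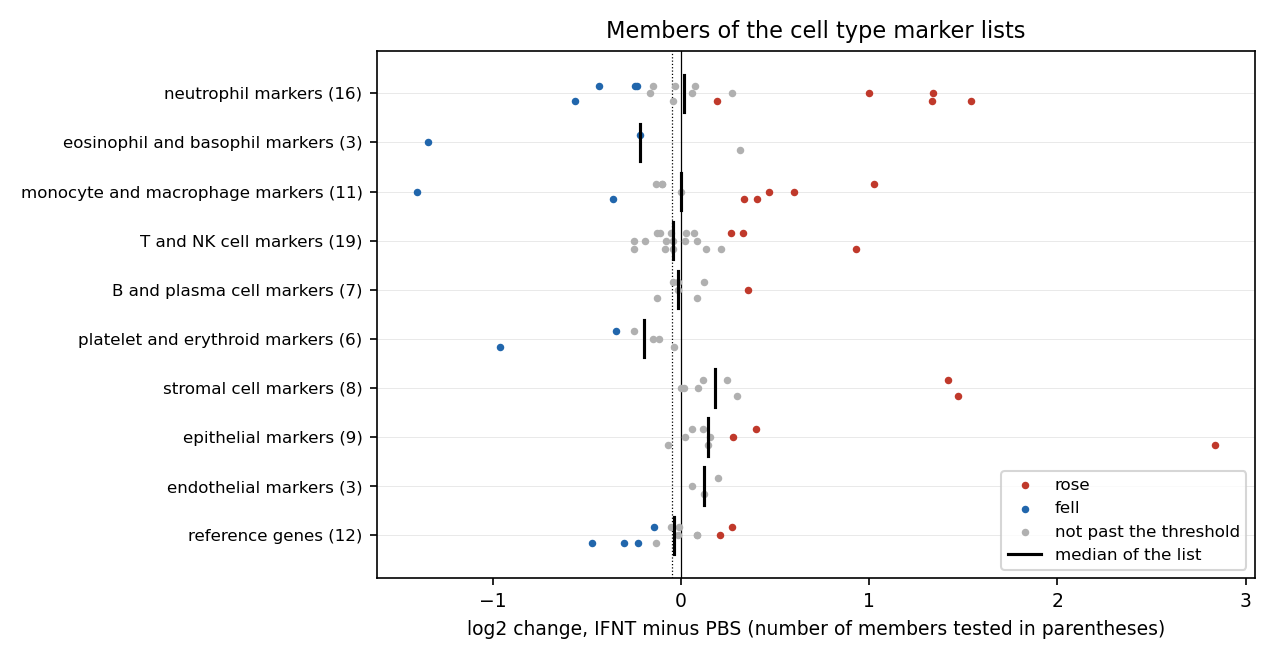
Each point is a tested member of 1 of 10 marker lists, placed by its log2 change with IFNT; the black bar is the median of the list and the dotted line the median of all genes tested (−0.05). Monocyte and macrophage markers lie on both sides of 0 (5 rose, 2 fell), with CD36 furthest out (−1.40). Most members of the other lists lie near 0. The exceptions furthest out are MUC1 (2.84), the neutrophil marker CATHL6 (1.54), CNN1 (1.47) and COL1A1 (1.42). The eosinophil and basophil marker CCR3 (−1.34) and the neutrophil markers FCGR3A (1.34) and CATHL2 (1.33) follow.

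Genes outside these lists filled much of the ranking. Among the 40 largest rises were GDAP2 (3.42 ± 0.06), SASS6, a centriole protein (3.25 ± 0.06), NFE2L3, a transcription factor (2.78 ± 0.08), CDKN2AIP (2.68 ± 0.05), the mitochondrial carrier SLC25A30 (2.85 ± 0.06) and ADRB3, the beta-3 adrenergic receptor (2.84 ± 0.25). DECR2, a peroxisomal enzyme of fatty acid breakdown, rose by 4.99 ± 0.06. TMPRSS2, a membrane serine protease, rose at least 2.59-fold from background, XRN2 at least 3.52-fold and KIF5C at least 2.83-fold. The 40 largest falls included the retinol dehydrogenase DHRS9 (−1.55 ± 0.08), PNP, an enzyme of purine salvage (−1.49 ± 0.09), the DNA repair glycosylase SMUG1 (−1.52 ± 0.05), NINJ1, which ruptures the membrane of dying cells (−1.49 ± 0.08), the receptor for medium-chain fatty acids GPR84 (−1.46 ± 0.20), the iron transporter SLC11A2 (−1.21 ± 0.08) and GNAI1, an inhibitory G protein subunit (−1.16 ± 0.06).

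A gene is represented by 1 probe, and where several were tested they did not always read alike. Of 137 genes with several probes, 84 had at least 1 call; in 38 of these every probe was called in the same direction, in 45 some probes had no call, and in 1, NECTIN1, the calls went both ways. The 2 probes of CNEP1R1 share the same 60 bases and gave 2.52 and 2.53. Those of AXL, a receptor tyrosine kinase, gave 0.43 and 3.20, and those of SLC4A5 gave 0.08 and 2.62, so the change of these genes depends on the probe read.

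The responses of granulocytes and stromal cells were compared for the 8 largest rises and 8 largest falls of granulocytes. Over all 12046 probes tested for a difference between the responses, 3197 differed (26.5%), and 15 of these 16 genes were among them. Since the 16 were chosen for a large change in granulocytes, that share is given as a description. The antiviral genes of the set rose in both cell types: RTP4 rose by 4.87 in granulocytes and 5.64 in stromal cells (difference −0.77 ± 0.09), and RSAD2, also called viperin, by 4.70 and 6.10 (difference −1.40 ± 0.20). GBP5, a guanylate-binding protein, rose by 4.71 and 4.79. Its difference of −0.08 ± 0.19 did not pass (adjusted p 0.81, 95% interval −0.49 to 0.33); no PBS array of stromal cells was well above background there, and with normexp background correction the difference was 2.98. With that correction the differences of RTP4 (−0.23) and RSAD2 (−0.49) no longer passed.

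Among these 16 genes, the widest contrasts on probes measured in both cell types were those of 3 that rose. CXCL10 rose by 6.31 in granulocytes and 0.64 in stromal cells, ADM by 4.36 and 0.25, and DECR2 by 4.99 and 0.20, all well above background on every stromal array. Among the falls, MEFV changed by −1.76 and −0.11, PCOLCE, which promotes collagen processing, by −1.75 and −0.17, and DEFB13 by −2.32 and −0.42. The other 7 genes were not well above background on most stromal arrays: CCL8, CCL20, TAP, CXCR4 and LAP on none with IFNT, and BCL2L14 and BNBD-9-LIKE on 1. For them the difference is between a change in granulocytes and values at background, and that of LAP (−1.45 ± 0.49, adjusted p 0.047) was no longer called when any of 12 of the 14 arrays was left out (−1.58 to −1.09). The cell types lay on different slides, which cannot be told apart from cell type, although each change was measured within a slide.

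**Figure D5:**
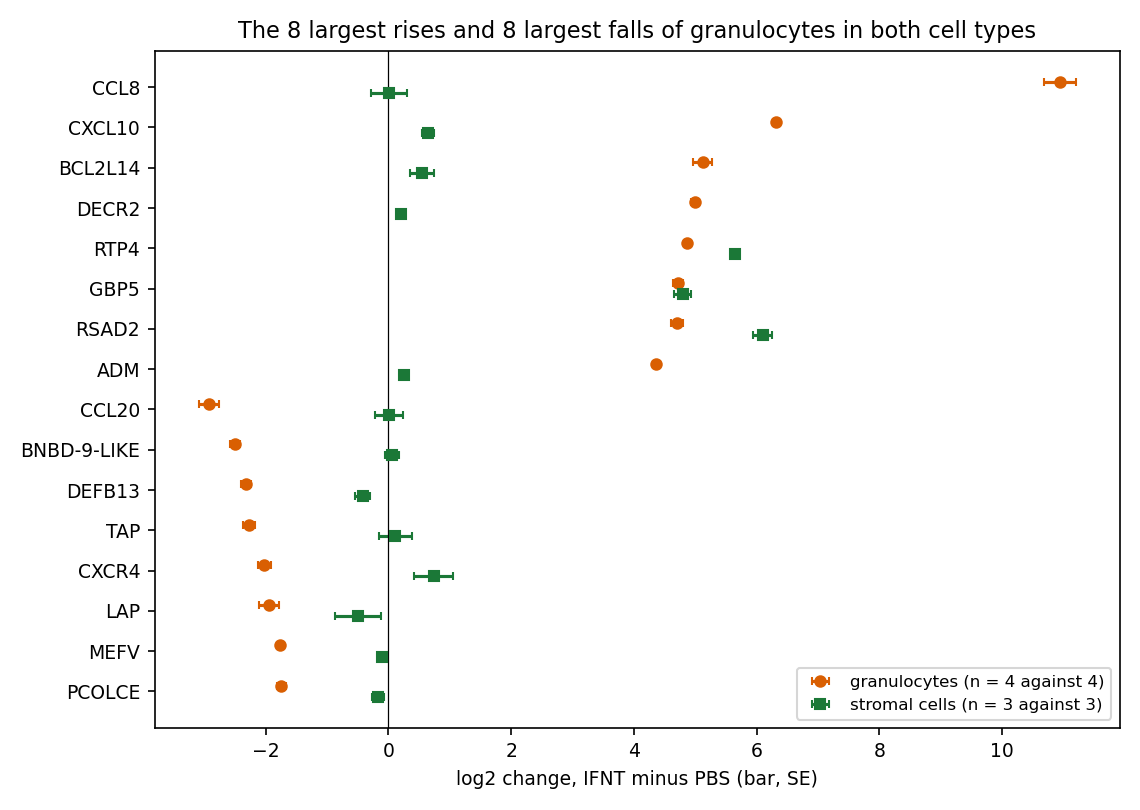
For the 8 largest rises and 8 largest falls of granulocytes, the log2 change with IFNT is shown for granulocytes (circles, n = 4 against 4) and endometrial stromal cells (squares, n = 3 against 3), with SE bars. RTP4, GBP5 and RSAD2 rose in both cell types, while CXCL10, ADM and DECR2 rose by 6.31, 4.36 and 4.99 in granulocytes and by 0.64, 0.25 and 0.20 in stromal cells; the fitted values of CCL8, BCL2L14 and CCL20 in granulocytes are against a group at background.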

How the data were processed

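The deposited scanner files hold fluorescence intensity per spot from Agilent Feature Extraction 9.5, per the file headers; the processed signal used here is an intensity that the authors' software had already corrected for background. The values in the table deposited by the authors are log2 values, each column equal to the log2 processed signal of its array minus a constant, with column medians of −3.30 to −3.23, and was used as an alternative; why that constant was chosen is not given in the sources used here. Processed signals were taken to log2, less the 75th percentile of the 15208 non-control probes of each array. Non-uniform and outlier spots, as marked by the scanner software, were removed. Testing took in a probe when it was well above background on at least 4 of the 8 arrays. Where 1 group was wholly at background, a fold is a lower bound: the mean of the bright group against the higher, on each array, of the dim probe's own signal and the lowest signal well above background.

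The IFNT-PBS comparison used limma 3.58.1 (R 4.3.3; two-sided, Benjamini-Hochberg adjusted p over all probes tested, threshold 0.05), checked on simulated data. The contrast with stromal cells was fitted over all 14 arrays and over probes well above background on at least 3 stromal or 4 granulocyte arrays. The number of arrays limits the precision. Symbols were matched for 7150 probes, 1011 of them from a description of a similar gene, using RefSeq names of assembly ARS-UCD2.0. The rule for named genes took the 40 largest rises and the 40 largest falls, up to 8 members per list and up to 6 per marker list; the text prints part of the 340 genes it chose, and some genes are not reported here. The members and lists were chosen with earlier results of these data known. No genome build is named by the files, so no coordinates are given.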

Additional observations from a re-analysis of the deposited data

Results flagged for a closer look

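Over 56 groups of 4 values checked, 26 genes and 2 array measures in each treatment, 3 had an array apart from the others by Dixon's criterion for 4 samples, about the number that chance gives, since chance marks about 1 in 20 groups. With IFNT, BNBD-9-LIKE was highest on array 3 (2.73, the next 2.63) and TAP was highest on the same array (−2.29, the next −2.40). GAPDH with IFNT was highest on array 2 (5.85, the next 5.79). Without IFNT array 3, BNBD-9-LIKE changed by −2.53 and TAP by −2.31, and without IFNT array 2 GAPDH changed by −0.32.

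The IFNT response differed between granulocytes and stromal cells in 15 of the 16 genes compared, by the interaction term in limma. Granulocytes minus stromal cells, the difference was positive for CCL8 (10.94), CXCL10 (5.67), DECR2 (4.79), BCL2L14 (4.57) and ADM (4.11). It was negative for CCL20 (−2.93), CXCR4 (−2.76), BNBD-9-LIKE (−2.56), TAP (−2.39), DEFB13 (−1.89), MEFV (−1.65), PCOLCE (−1.58), LAP (−1.45), RSAD2 (−1.40) and RTP4 (−0.77). CCL8, CCL20, CXCR4, TAP and LAP were well above background on no stromal array, and BCL2L14 on 1, so no fold can be given for those. BNBD-9-LIKE was well above background on only 1 stromal array of each treatment, so its difference also rests on stromal values at background. In granulocytes CCL8 and BCL2L14 were well above background on no PBS array and CCL20 on no IFNT array, so the values of these 3 rest on background and have no order.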

How the results depend on the processing

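Probes that fell at least 2-fold numbered 100, and 54 with normexp background correction; every other overall count stayed within 1.5 times its main value under each alternative run. The 4633 changed probes became 4047 to 4669 when each of the 8 arrays was left out in turn, 4151 with normexp and 4909 with all 14 arrays in 1 fit, and the 3197 differing responses became 2696 to 3329 without single arrays, 3144 with the replicate block, 2952 with normexp and 3412 with quantile normalization. Rises were 35.1% to 40.7% of calls. Same-numbered PBS and IFNT samples correlated at 0.14, 0.18, 0.20 and −0.12 in their deviations, and samples of different number at −0.43 to 0.32. Not every sample correlated best with its own number. So few samples cannot settle whether the numbers pair them. With the replicate number as a block 4674 probes changed. Of 223 genes named in the text, with CYBA left out, 196 were called. Of the called genes 4 lost the call without at least 1 array and 14 under another alternative, and 10 genes gained one. Values that changed sign were those of STAT5B (0.021), BOLA (−0.071) and STING1 (−0.028) with quantile normalization, NECTIN1 with the median of its probes (0.14), and the GBP5 difference (2.98 with normexp, 0.43 with quantile normalization, and −0.26 to 0.053 when single arrays were left out); without single arrays IFNG ran from −0.11 to 0.012, MAVS from −0.23 to 0.060 and STING1 from −0.016 to 0.15. Ribosomal rises ranged from 0 to 6. The planned search for promoter motifs was not run, since no promoter sequence was at hand. Levels at background or saturated are bounds.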
